A study of Mus musculus with 5 samples.

Results

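Parm1, Muc1, Podxl, Podxl2 and Cd164 encode mucin-like and sialomucin membrane proteins, and their transcripts were followed in the early dorsal pancreas of mouse embryos with and without Ptf1a. Every probe set annotated to exactly 1 of these 5 symbols was taken, which gave 8 of the 45037 probe sets tested and 5 of the 18193 genes named on them. Parm1, Podxl and Cd164 each had 2 probe sets, and Muc1 and Podxl2 had 1 each. The set was built around Parm1, which was chosen by its difference between null and heterozygote on these same arrays, so all differences between genotypes in the 5 genes are given as descriptions and not as evidence.

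The tissue was the dorsal pancreatic bud at E10.5 on a C57BL/6J background, freed of mesenchyme by hand. One group was homozygous for the Ptf1a mutation (null, 3 arrays) and the other carried 1 mutant copy (heterozygote, 2 arrays). Wild-type buds were not compared, so the controls share a mutant allele with the nulls. Each array received amplified RNA from a pool of 3 buds. Nothing in the labels ties pools to litters, so the SDs below describe the spread between these pools, which may be technical. The SEs and intervals are from limma, which moderates the variance of each probe set with that of the others. They therefore rest only in part on the spread of the probe set named. With 2 arrays against 3, an exact permutation test cannot give a p below 0.1.

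Mucin-like membrane proteins carry long extracellular stretches rich in serine, threonine and proline that are covered with O-linked sugar chains, often ending in sialic acid. The sugars make the stretch stiff and negatively charged, so that these proteins can hold neighbouring membranes apart or present ligands to selectins. In epithelia several of them line the apical surface, and podocalyxin, the product of Podxl, marks the membrane at which a lumen opens. Ptf1a, needed for normal growth and exocrine development of the pancreas, is a transcription factor of the helix-loop-helix family. It binds DNA together with another such protein and Rbpj, at an E-box (CANNTG) close to a TC-box (TTTCCC).

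Values below are log2 intensities after quantile normalisation unless another scale is named. A probe set was called above background on an array when it exceeded the 95th percentile of 27 bacterial control probe sets there, a level of 3.03 to 3.29. Array medians of the deposited intensity were 13.7 to 17.5, and 60.9% to 65.2% of probe sets were above background. Ptf1a itself (1419424_at) read 7.10 and 7.33 in heterozygotes and 5.21, 6.07 and 5.00 in nulls. Whether this probe set lies in the mutated part of the gene is not given, so it is a limited check of the labels. All 8 bud epithelium markers, Krt8, Krt18, Cdh1, Epcam, Cldn6, Sox9, Pdx1 and Foxa2, were above background on all 5 arrays.

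The RefSeq promoter table (GRCm38.p6) held entries for 4 of the 5 genes. The 250 bases before the annotated start are shown for Parm1, the member with the widest gap between genotypes among those above background, and for Cd164, whose main probe set had nearly equal group means. Capitals mark each E-box, searched as CANNTG, which reads the same on both strands. The Parm1 window is chr5:91517450-91517699 and the Cd164 window chr10:41519250-41519499, both on the plus strand.
Parm1: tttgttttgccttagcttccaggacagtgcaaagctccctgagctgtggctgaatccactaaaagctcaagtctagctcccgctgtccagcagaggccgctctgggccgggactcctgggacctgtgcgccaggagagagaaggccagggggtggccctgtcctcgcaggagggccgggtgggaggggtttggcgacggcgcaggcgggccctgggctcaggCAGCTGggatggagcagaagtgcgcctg
Cd164: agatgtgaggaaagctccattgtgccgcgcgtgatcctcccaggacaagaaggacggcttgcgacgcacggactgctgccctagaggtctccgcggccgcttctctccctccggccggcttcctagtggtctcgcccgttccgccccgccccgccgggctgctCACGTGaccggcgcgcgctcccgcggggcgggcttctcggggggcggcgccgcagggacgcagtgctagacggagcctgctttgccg

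Each window held 1 E-box. That of Parm1 was CAGCTG, beginning 28 bases before the start, and that of Cd164 was CACGTG, beginning 87 bases before it. Muc1 had 3 E-boxes in its window, and Podxl2 had 1 in 1 of its 3 annotated windows. An E-box is common at this length: 66.2% of 32851 promoter windows held at least 1, while CAGCTG occurred in 13.0% and CACGTG in 6.02%. The TC-box, searched as TTTCCC or its complement GGGAAA, was in 21.9% of all windows and in 0 of the 6 windows of these genes. The Parm1 window also held 11 CG dinucleotides against 33 in that of Cd164 and a median of 6 over all windows. These matches describe letters in short windows and say nothing about binding.

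Parm1 (prostate androgen-regulated mucin-like protein 1, first described in rat prostate) was far lower in null buds at both of its probe sets. At 1428891_at the deposited intensities were 276 and 365 in heterozygotes and 34.7, 53.1 and 46.9 in nulls. The normalised log2 values were 7.89 and 8.54 in heterozygotes and 4.99, 6.10 and 5.53 in nulls. All 3 null arrays lay below both heterozygote arrays, and all 5 arrays were above background, so the signal of Parm1 in nulls was low but still measurable.

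At 1428891_at the Parm1 mean over heterozygotes was 8.21 ± 0.46 (SD, n = 2), and over nulls it was 5.54 ± 0.56 (SD, n = 3). That is a 6.39-fold lower signal, a log2 difference of -2.67 with an SE of 0.50 and a 95% interval of -3.96 to -1.39. Among the 20815 probe sets above background on all 5 arrays, only 4 had a more negative difference. That filter leaves out probe sets that were at background on any null. Among all probe sets tested, the rank of Parm1 from the most negative difference was 431. This difference is the value through which Parm1 was chosen. It reached a limma adjusted p of 0.424 in the planned fit, and 0.0397 in the fit that lets the prior variance follow signal level (the trended fit).

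At the dimmer Parm1 probe set, 1424214_at, the log2 values were 6.52 and 5.93 in heterozygotes and -0.48, 3.00 and 3.53 in nulls. Both heterozygotes were well clear of background, while null replicates 1 and 2 were below it and null replicate 3 lay just above it. The log2 difference was -4.21 with an SE of 1.32, and its size depends on the very low reading of null replicate 1, as it was -2.93 without that array. With readings under the background set to it the difference was -2.97, and with an offset of 16 added before the log it was -2.03.

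**Figure D1:**
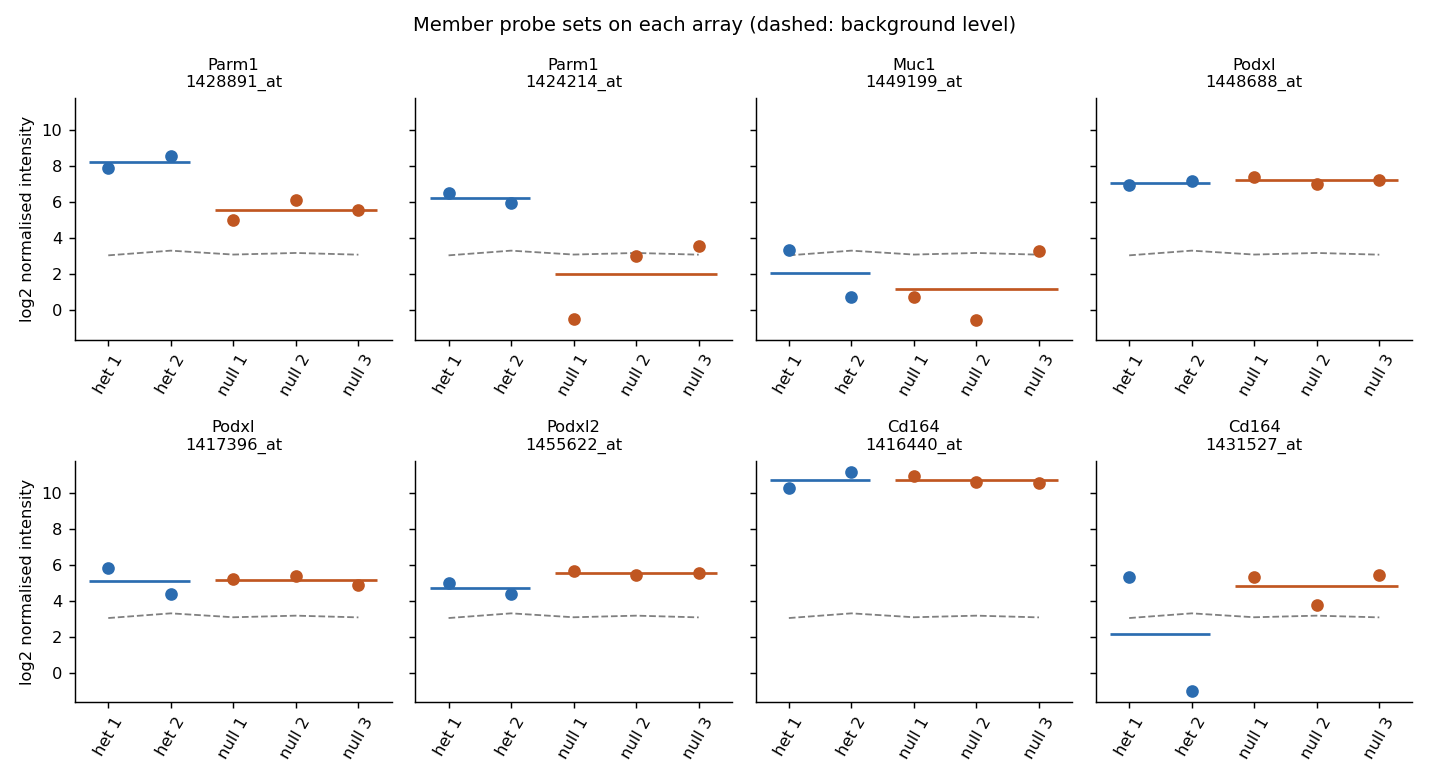
Normalised log2 intensity (vertical axis) of each of the 8 probe sets on each of the 5 arrays (horizontal axis). Blue points are heterozygotes, orange points are nulls, solid bars are group means and the dashed line is the background level. Both Parm1 probe sets separate the genotypes, Podxl2 does so by a smaller step in the other direction, and the remaining probe sets overlap.

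Groups that do not overlap are common with so few arrays. Of all 45037 probe sets, 10.1% had every null below both heterozygotes and 9.9% had every null above them. Among the 8 probe sets of the mucin-like genes, the 2 of Parm1 were of the first kind and the 1 of Podxl2 of the second. At an adjusted p below 0.05 the planned limma fit called 0 probe sets (0%), while 2484 (5.52%) had an unadjusted p under 0.05. The trended fit called 3 lower probe sets (0.00666%) and 5 higher ones (0.0111%), with 2219 (4.93%) at an unadjusted p under 0.05. Parm1 1428891_at was 1 of the 3, and no other probe set of the 5 genes was called by either fit.

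The trended call of Parm1 needed all 5 arrays. With any single array left out, its adjusted p in the trended fit was between 0.0987 and 0.497, and the log2 difference between -2.98 and -2.34. In the planned fit the adjusted p over the same subsets was 0.417 to 0.674.

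Muc1 encodes the transmembrane mucin of apical epithelial surfaces. Its single probe set, 1449199_at, read 3.32 and 0.73 in heterozygotes and 0.74, -0.55 and 3.28 in nulls. It was above background on heterozygote replicate 1 and null replicate 3, by a narrow margin on each, and below it on the other arrays. The groups overlapped, and a log2 difference of -0.87 had a 95% interval of -4.49 to 2.74. At a signal this close to background a genotype difference was not detectable.

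Podxl and Podxl2 belong to the CD34 family of sialomucins. Podocalyxin coats podocytes, vessel lining and the apical face of many embryonic epithelia, and its tail is linked to actin through ezrin and the Nherf adaptors. Podxl at 1448688_at read 6.93 and 7.16 in heterozygotes and 7.40, 7.02 and 7.24 in nulls. These 5 values lie within a 1.39-fold range, and the genotypes overlapped. Its residual SD of 0.18 was among the lowest 6.99% of all probe sets.

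For Podxl 1448688_at the heterozygote mean was 7.04 ± 0.17 (SD, n = 2) and the null mean 7.22 ± 0.19 (SD, n = 3). The log2 difference of 0.17 had a 95% interval of -0.74 to 1.09 in the planned fit and -0.44 to 0.79 in the trended fit. A change as large as that of Parm1 lies outside both intervals. The dimmer Podxl probe set, 1417396_at, read 5.82 and 4.38 in heterozygotes and 5.19, 5.36 and 4.90 in nulls, a log2 difference of 0.05 with nulls lying between the heterozygotes.

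Podxl2 encodes endoglycan, a CD34 family sialomucin that can serve as a selectin ligand. At 1455622_at it read 5.00 and 4.38 in heterozygotes and 5.63, 5.43 and 5.52 in nulls. Every null was above both heterozygotes, and the nulls were tight, with a mean of 5.52 ± 0.10 (SD, n = 3) against 4.69 ± 0.44 (SD, n = 2). The signal was 1.78-fold higher in nulls (log2 difference 0.83, SE 0.38, 95% interval -0.14 to 1.81). Neither fit called it, at limma adjusted p of 0.947 and 0.976.

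The size of the Podxl2 difference rested on the spread between the heterozygotes. Dropping heterozygote replicate 2 gave 0.52, and dropping heterozygote replicate 1 gave 1.14. Podxl2 stayed higher in nulls under each setting tried, which separate groups make certain when an array is removed.

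Cd164 encodes endolyn, a sialomucin of endosomes, lysosomes and the cell surface that associates with the chemokine receptor Cxcr4 on blood progenitors. At 1416440_at it read 10.29 and 11.18 in heterozygotes and 10.96, 10.62 and 10.53 in nulls. The nulls lay between the heterozygotes, and the means were 10.73 ± 0.63 (SD, n = 2) and 10.70 ± 0.23 (SD, n = 3). The log2 difference of -0.03 had a 95% interval of -1.16 to 1.10, or -0.51 to 0.45 in the trended fit.

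The other Cd164 probe set departed from this on 1 array. At 1431527_at the values were 5.29 and -1.04 in heterozygotes and 5.30, 3.75 and 5.43 in nulls. Heterozygote replicate 2, which had the highest Cd164 reading at 1416440_at, was the only array below background at 1431527_at. The log2 difference of 2.70 therefore turned to -0.46 without that array, and its 95% interval on all arrays was -2.33 to 7.73.

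**Figure D2:**
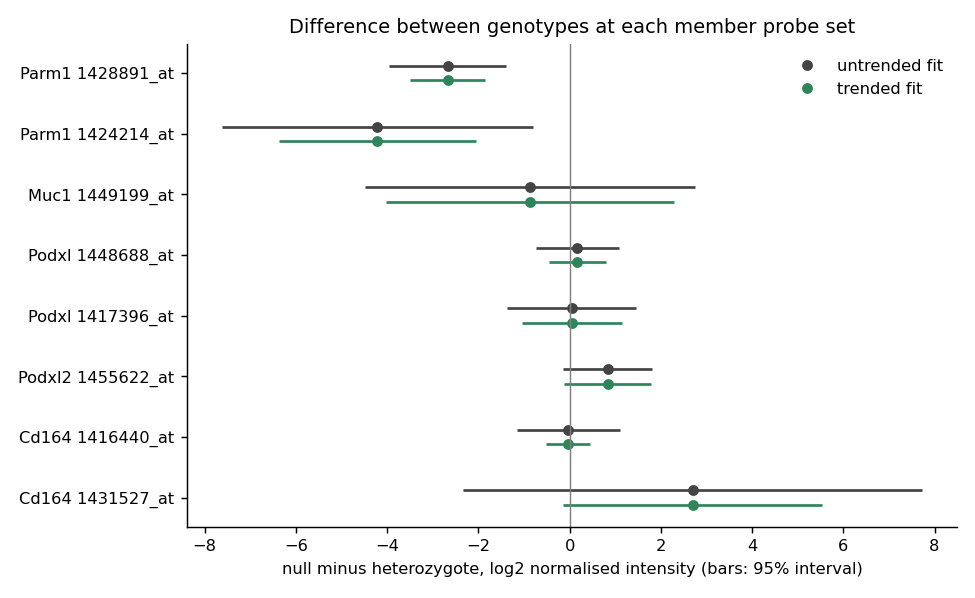
Null minus heterozygote log2 difference (horizontal axis) for each probe set (vertical axis), with 95% intervals from the planned fit without a trend (grey) and the trended fit (green). Parm1 sits at -2.67 and -4.21, and the intervals of the 6 other probe sets cover 0. The contrast was used to choose Parm1, so its distance from 0 is a description.

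The profile of Parm1 over the 5 arrays was set against 26328 probe sets of 14120 other genes, above background on at least 2 arrays. The measure was the root mean square difference of log2 values after subtracting each probe set's mean. Each gene was placed by its closest probe set, not its brightest, so a name stands for a single probe set and not the whole gene. Galnt7, for example, was placed by a probe set with a log2 difference of -1.05, while its brightest had 0.42. The nearest were Krt4, a keratin of stratified epithelia (difference 0.25), Cyb5r3, a cytochrome b5 reductase (0.25), Ube2ql1, of the ubiquitin-conjugating enzyme family (0.26), Nemf, a ribosome quality control factor (0.29), and Rusc2 (0.32). All 5 passed that filter through the heterozygotes alone and were above background on 0 of the nulls, so their null readings carry no order. The ranking uses the same genotype gap through which Parm1 was chosen, so a gene lower in nulls ranks high by construction, and the names are a description of these arrays. The 2 probe sets of Parm1 differed from each other by 1.41 on this measure, against a median of 1.44 over all candidate probe sets, because 1424214_at spans a wider range.

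Genes that work with these proteins were followed in 6 lists, covering other membrane mucins and sialomucins, secreted mucins, the enzymes that add the first O-linked sugar, the enzymes that build and sialylate the chain, the cytoplasmic partners of podocalyxin, and selectins with the Cxcr4 axis. Of the 74 symbols listed, which include older names of some genes, 62 were measured, each by its brightest probe set. In nulls 27 were lower and 35 higher, beside 50.9% lower among all named genes. These counts include readings at background, as 33 of the 62 were above it on all arrays and 11 on none. Neither limma fit called any of the 62 (lowest adjusted p 0.491 in the planned fit and 0.953 in the trended fit), beside 0% and 0.033% of all named genes. An unadjusted limma p under 0.05 was found for 7 (11.3%) in the planned fit and 5 (8.06%) in the trended fit, beside 5.52% and 4.93% of all probe sets. The latter shares are over every probe set and not the brightest of each gene, so the sets compared are unlike. The groups did not overlap for 8 lower genes (12.9%) and 6 higher ones (9.68%), close to the 10.1% and 9.82% among the brightest probe sets of all 18193 named genes. These counts also include readings at background, as Muc5ac and Galnt14 among the lower and Galntl5 among the higher were above it on 0 arrays.

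Among 16 other membrane mucins and sialomucins, 9 were lower and 7 higher, with a median log2 difference of -0.11 beside -0.01 over all named genes. Pdpn, the mucin-type glycoprotein podoplanin, had the lowest p of the list. It read 5.60 and 5.94 in heterozygotes and 6.93, 6.97 and 6.69 in nulls, a log2 difference of 1.10 that neither fit called (adjusted p 0.815 and 0.953). All nulls were above both heterozygotes. Podoplanin is also made by mesenchyme and mesothelium.

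Cd164l2, the relative of Cd164, was singled out after its values were seen. It read 5.22 and 4.87 in heterozygotes and 4.24, 3.84 and 4.07 in nulls, so the groups separated in the opposite sense to Pdpn, with a log2 difference of -0.99 and adjusted p of 0.874 and 0.976. Cd34, the founding member of the Podxl family and a marker of vessel lining and blood progenitors, is named for that kinship and was also picked after its values were seen. It read 6.56 and 6.03 against 6.05, 4.37 and 6.56, with overlapping groups and its lowest value on null replicate 2. Muc4, Muc15 and Muc3 were above background on 0 arrays, and Muc16 on 1.

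Of 4 measured secreted mucin genes, Muc5ac, Muc5b and Glycam1 were above background on 0 arrays and Muc2 on 3. In the planned fit the lowest p was that of Muc5ac, whose values of 1.03 and 2.73 against 0.71, 0.53 and 1.01 are all readings at background, so no direction is given for it. In the trended fit it was that of Muc2, which read 3.59 and 3.39 in heterozygotes and 1.14, 2.36 and 3.59 in nulls, with overlapping groups.

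Polypeptide GalNAc transferases start mucin-type glycans by attaching N-acetylgalactosamine to serine or threonine. Of 18 measured, 6 were lower and 12 higher, with a median log2 difference of 0.18, and 9 were above background on all arrays. Galnt14 had the lowest p in the planned fit (adjusted p 0.491), but it was above background on 0 arrays. In the trended fit the lowest p was that of Galnt4, which read 5.22 and 5.20 in heterozygotes and 6.56, 5.72 and 6.28 in nulls, with every null higher and a log2 difference of 0.98 that was not called (adjusted p 0.976). Galnt1, a widely expressed member of the family, read 8.23 and 8.89 in heterozygotes and 8.48, 8.16 and 8.18 in nulls, with overlapping groups. Galnt1 was singled out after its values were seen.

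Of 15 enzymes that extend and sialylate the chain, 6 were lower and 9 higher, with a median of 0.11. St6galnac4, which adds sialic acid to the inner sugar of short O-glycans, had the lowest p. Its values were 5.55 and 5.73 in heterozygotes and 3.54, 4.86 and 4.02 in nulls, a 2.83-fold lower signal in nulls (log2 difference -1.50, SE 0.51) that did not pass (adjusted p 0.838 and 0.976). All nulls lay below both heterozygotes.

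All 5 partners of podocalyxin were above background on all arrays, with 2 lower and 3 higher and a median of 0.11. In the planned fit the adaptor gene Slc9a3r2 had the lowest p of this list, at a log2 difference of -0.66, a 95% interval of -1.87 to 0.55 and an adjusted p of 0.991. In the trended fit it was Ezr, the gene of ezrin, which read 7.78 and 7.33 in heterozygotes and 8.13, 8.20 and 7.86 in nulls, every null being higher, with a log2 difference of 0.51 that was not called (adjusted p 0.976). Of the 4 measured genes of the selectin and Cxcr4 list, 1 was lower and 3 were higher, with a median of 0.32. Selp, a selectin of platelets and vessel lining, had the lowest p of that list in the planned fit with 0 arrays above background. In the trended fit it was the chemokine gene Cxcl12, the only one of the 4 above background throughout, at a log2 difference of 0.27 (adjusted p 0.986).

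**Figure D3:**
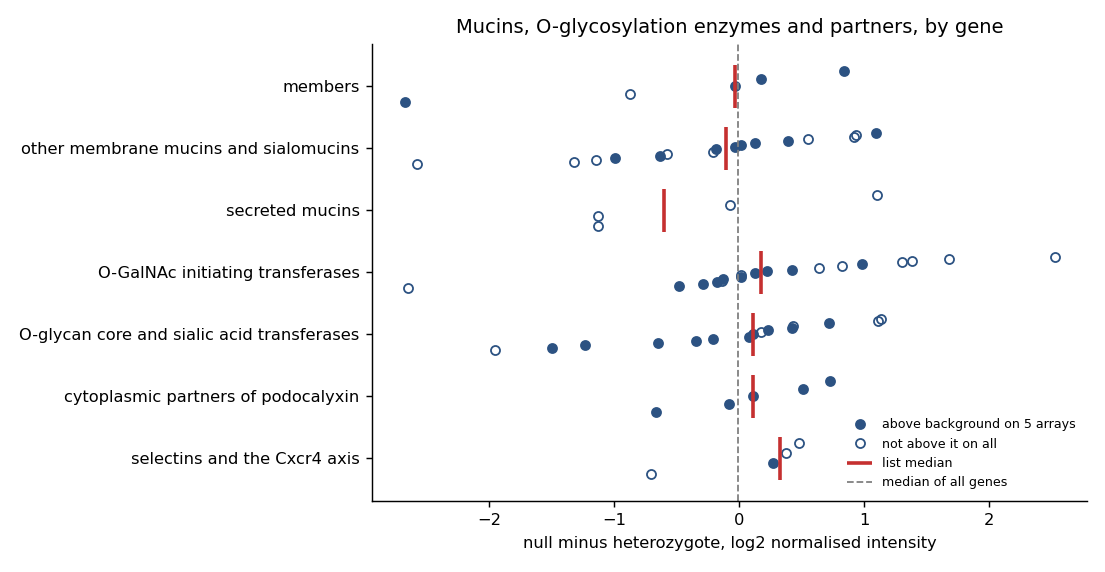
Null minus heterozygote log2 difference (horizontal axis) of each gene's brightest probe set, by list (vertical axis). Filled points were above background on all 5 arrays, open points were not, red bars are list medians and the dashed line is the median of all named genes at -0.01. Parm1 is the leftmost filled point at -2.67, and the widest scatter is among open points.

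Several of these genes are also expressed outside the bud epithelium, and in pooled tissue fewer cells of a type cannot be told apart from less RNA per cell. Markers of other cells were therefore summed on each array, as linear normalised intensity. Of 12 mesenchyme markers, 11 were higher in nulls, with sums of 1568 to 1976 in heterozygotes and 1860 to 2273 in nulls, and Twist1 was above background on no array. Only 6 of the 12 were above background on all 5 arrays, so the count of 11 includes readings at background. Of 8 erythroid markers, 7 were lower in nulls, with sums of 9418 to 11659 in heterozygotes and 7901 to 8813 in nulls, and Hba-a1 was above background on no array. The erythroid sums of the genotypes did not overlap, while the mesenchyme sums did. The brightest genes weigh most in a sum: among erythroid genes Hbb-y overlapped between genotypes, while Hbb-bh1 was lower on every null. Gene by gene, 5 of the 8 erythroid markers were lower on every null, beside 10.1% of all named genes. Hba-a1, with all its readings at background, is among these 5. Of the 12 mesenchyme markers, 4 were higher on every null, beside 9.82%. Nkx3-2, above background on 0 heterozygotes, is among these 4. The part of either list in the Parm1 and Podxl2 differences was not tested.

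Bud epithelium markers were lower for 5 of 8 genes, with overlapping sums of 3924 to 4836 in heterozygotes and 4820 to 6250 in nulls. Krt8 and Krt18, the brightest of the list, make up most of these sums and were higher on every null than on both heterozygotes. For Krt8 the margin was very narrow, 11.474 on null replicate 3 against 11.469 on heterozygote replicate 2. Pdx1 was lower on every null (7.61 and 7.73 against 7.05, 7.32 and 7.13). Among the 8 genes, 1 was lower on every null and 2 were higher, beside 10.1% and 9.82% of all named genes. The part of this list in the Parm1 difference was not tested. Of 8 endothelium markers, 5 were lower, with sums of 223 to 352 in heterozygotes and 154 to 381 in nulls. Mesothelium markers were lower for 4 of 6, with sums of 46.8 to 69.5 and 61.4 to 94.6, and Msln was above background on no array. Leukocyte markers were lower for 6 of 7, with sums of 78.8 to 234 and 90.5 to 146, and neural crest and glia markers were lower for 2 of 4, with sums of 128 to 151 and 118 to 186. Only 6 endothelium, 1 mesothelium, 1 leukocyte and 3 neural crest and glia markers were above background on all 5 arrays. The counts of lower genes in these lists therefore include readings at background. The part of these lists in the values of Podxl, Podxl2 and Cd164 was not tested.

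**Figure D4:**
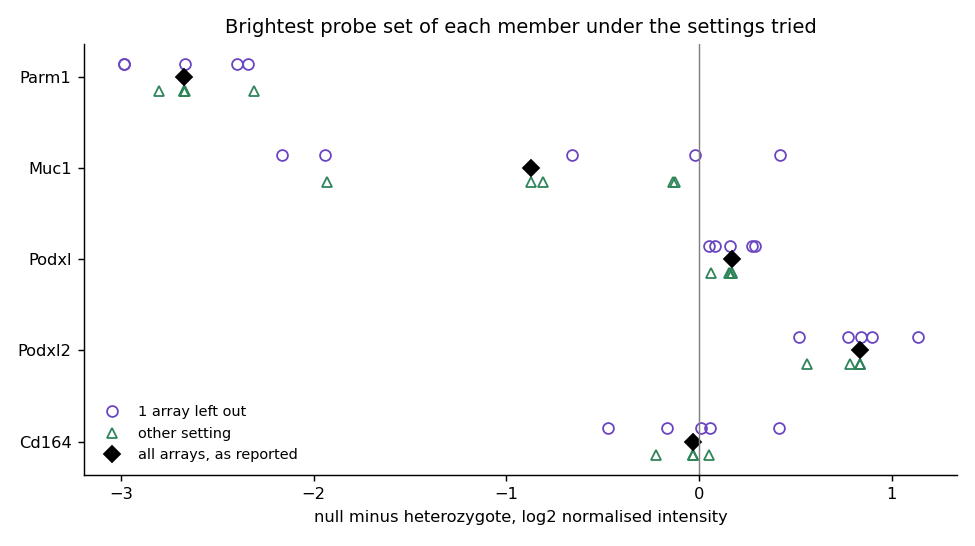
Null minus heterozygote log2 difference (horizontal axis) of each gene's brightest probe set (vertical axis) in the planned fit (black diamonds), with 1 array left out (purple circles) and under other normalisation, offset, filter, floor and block settings (green triangles). Parm1 keeps to between -2.98 and -2.31 and Podxl2 to between 0.52 and 1.14, while Muc1 and Cd164 fall on both sides of 0.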

How the data were processed

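The deposited table holds 1 linear signal intensity per probe set and array for 45101 probe sets of an Affymetrix mouse expression array. GCOS and RMA are named, per the submitters' processing notes, without version or order; the background step is not described there. Intensities were put on a log2 scale with no offset and quantile normalised. The 64 control probe sets were left out, leaving 45037, of which 34945 carried 1 gene symbol, 932 several and 9160 none in the platform annotation supplied. The symbols of all 5 members matched current RefSeq symbols by gene ID.

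Genotypes were compared with limma 3.58.1 in R 4.3.3 (lmFit, eBayes, genotype alone, two-sided, Benjamini-Hochberg over all 45037 probe sets, threshold 0.05). The trended fit uses trended and robust eBayes. Alternatives were median centring, an offset of 16, a filter and a floor at background, leaving out each array, and a replicate block. The number of arrays limits the precision.

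Members and lists were chosen with earlier results of these data known. Named genes were all members, called list genes, the gene of each list with the lowest p in the planned fit and the 5 profiles nearest to Parm1. Outside that rule, Cd34, Cd164l2, Galnt1, Galnt4, Galnt7, Ezr, Muc2, Cxcl12 and genes listed as below background were picked after their values were seen.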

Additional observations from a re-analysis of the deposited data

How the results depend on the processing

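Parm1 at 1428891_at kept its sign under all 19 settings, from -2.98 to -2.31. As its groups did not overlap, removing an array could hardly turn the sign. A trended fit also repeats the difference of the untrended fit on the same values, so the settings are not separate checks. Parm1 was called under 4 settings, all of them trended fits on 5 arrays. These were the trended fit itself (-2.67) and, added after the data were seen, with median centring (-2.80), the offset of 16 (-2.31) and no dim probe sets (-2.67). The number of called probe sets was 0 in the planned fit, 8 in the trended fit, and in added trended fits 4 with median centring and 10 with the offset or without dim probe sets. With 1 array left out it was 0 in the planned fit and 0 to 11 in the trended fit. No gene of the 6 mucin, glycosylation and partner lists was called under any setting.

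With 1 array left out, Muc1 ranged from -2.16 to 0.42 and Cd164 at 1416440_at from -0.47 to 0.41. With the replicate number as a block, which the labels do not show to pair the pools (correlations of deviations -0.02 and 0.01 for numbers 1 and 2), Cd164 was 0.053 and Parm1 -2.67 (adjusted p 0.851), and 0 probe sets were called. Podxl 1417396_at was -0.0043 with median centring and -0.0033 with the offset, in both fits, and -0.67 to 0.76 with 1 array left out. Cd164 1431527_at was -0.46 to 5.83 with 1 array left out. Low intensities limit Muc1, the dimmer Parm1 probe set and most secreted mucins.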
